A study of Mus musculus with 9 samples.

Results

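The genes described here are the antiviral interferon-stimulated genes of mouse splenic dendritic cells, a list of 36 genes matched by symbol to the platform annotation of the arrays. Of these, 33 had a transcript cluster (the probes of 1 gene locus, summarised as 1 value) that carried their symbol alone, among 19938 genes with such a cluster. Of several such clusters of a gene, the brightest on average was taken. All 33 entered the tests, which covered 10728 genes whose mean exceeded 61.3 on the linear intensity scale (5.94 in log2) in at least 1 group. 31 of the 33 exceeded that brightness in all 5 groups. Ddx60 did not in cDC1 and Trim30d did not in resting DKO cells, so those 2 entered through the groups where they were brighter. Isg15 and Ifi204 had clusters shared with another symbol only, and Ifi44 was not matched, so these 3 have no value here.

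RNA was measured on 9 Affymetrix gene arrays of conventional dendritic cells (cDC) sorted from spleens of 129SvEv/Tac mice, to find genes controlled by BATF proteins. WT cDC2 and cDC2 of Batf-/- Batf3-/- mice (DKO) were either resting or activated, with 2 arrays in each of these 4 groups. For activation, cells spent 1 h in IFN-gamma (100 ng/ml), after which LPS from E. coli (1 µg/ml) was given over 3 h. The fifth group held 1 array of resting WT cDC1. The age of the mice, and whether resting cells spent the same time in culture, are not given in the sources used here. Whether both arrays of a group stem from different animals is not given either, so the spread behind the p-values may be technical.

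Values are log2 intensities, on which a difference of 1 is a 2-fold difference, with replicate 1 given before replicate 2. Array medians ran from 53.4 to 55.6 on the linear scale, and the small number of arrays limits the precision. Batf read 6.74 and 7.37 in resting WT and 5.40 and 5.44 in resting DKO cDC2. After activation it read 7.26 and 9.07 in WT and 5.44 and 5.31 in DKO cells. Batf3 read 6.43 to 7.17 on the DKO arrays and 7.58 to 9.92 on the WT cDC2 arrays. Both targeted genes were thus lower on every DKO array than on every WT cDC2 array, although where their probes lie relative to the deleted parts is not known. Of the subset markers, Irf4 read 9.37 to 11.02 and Sirpa 9.05 to 10.30 on the cDC2 arrays, against 5.13 and 7.05 in cDC1. Xcr1 and Clec9a, which mark cDC1, read 9.33 and 8.67 on the cDC1 array and at most 4.73 and 4.32 on the cDC2 arrays. Not all markers listed for the subsets parted them. Irf8 of the cDC1 list read 11.67 to 12.27 on the activated cDC2 arrays against 9.94 in cDC1, and Tlr3 read 5.46 to 7.03 on the cDC2 arrays against 6.35. Itgam, a further cDC2 marker, stayed near the brightness limit on the cDC2 arrays, at 5.54 to 6.02. Clec4a4, Clec10a and Cd209a of the cDC2 list lay below that limit on all 9 arrays. In such sorted bulk samples, fewer cells of a type and less RNA per cell cannot be told apart.

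Type I interferon binds the receptor IFNAR1 and IFNAR2, whose Janus kinases activate STAT factors, and STAT2 joins IRF9 in a complex that binds a promoter element called the interferon-stimulated response element (ISRE). IFN-gamma acts mainly through a promoter element called the gamma-activated site (GAS), and LPS can evoke interferon-beta through TLR4 and its adaptor TRIF. Dendritic cells hold many of these antiviral genes at a tonic level even without infection. BATF and BATF3 are AP-1 family factors that bind DNA with JUN proteins and with IRF4 or IRF8.

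One array stood apart for these genes. The replicate 2 array of resting WT cDC2 gave the highest of the 4 resting cDC2 values for all 33 genes, a position it held for 21.6% of all genes tested. It exceeded WT replicate 1 by a median of 1.22, from 0.03 for Ifih1 to 3.30 for Oas3. The difference was 2-fold or more for 19 of 33 genes, against 1.79% of all genes tested. Oas3, an oligoadenylate synthetase, read 7.54 on WT replicate 1 and 10.84 on replicate 2. Oas2 of the same family read 7.15 and 10.04, and the exonuclease gene Isg20 read 9.18 and 11.78. At the other end, Ifih1, the RNA sensor MDA5, read 11.37 and 11.40, and Rsad2 (viperin) 11.81 and 12.18. For 13 of 33 genes the resting WT replicate 2 array was at or above the lower of the activated WT arrays: Bst2, Dhx58, Herc6, Ifi35, Ifit3, Isg20, Ly6e, Oas1a, Oas2, Oas3, Parp12, Xaf1 and Zbp1, where 71% of all genes had that order.

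The DKO arrays carried a smaller shift in the same order. Replicate 2 of resting DKO exceeded replicate 1 by a median of 0.42, from -1.18 for Cmpk2 to 2.05 for Bst2, with 24 of 33 genes above 0. It was 2-fold or more for 7 of 33 genes, against 0.559% of all genes. Across the 33 genes the WT and DKO replicate differences correlated at r = 0.76 (Spearman's rho 0.78). Over all 10728 genes tested they correlated at r = 0.66 (rho 0.61), and in both cases the points share the same 4 arrays and genes are not independent replicates. Among activated arrays the replicate difference had a median of 0.21 in WT and -0.16 in DKO. In resting WT the replicate difference was not general to immune genes, but some genes outside the 33 shared it. Its median was 0.49 in a list of IFN-gamma-associated genes and 0.48 for STAT and IRF factors. It was -0.27 for LPS-type cytokines, -0.14 for immediate early genes and 0.02 for receptors and Janus kinases. In the IFN-gamma-associated list it ran from -0.11 to 2.02. There it was 2-fold or more for 4 of 11 genes, against 1.79% of all genes tested. From replicate 1 to the replicate 2 array of resting WT, Gbp7 went from 7.05 to 9.07, Gbp5 from 8.96 to 10.74 and Gbp3 from 7.55 to 9.25. Medians over the 33 genes in the comparisons that use that array are therefore given with it and without it. What set the array apart was not tested.

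**Figure D1:**
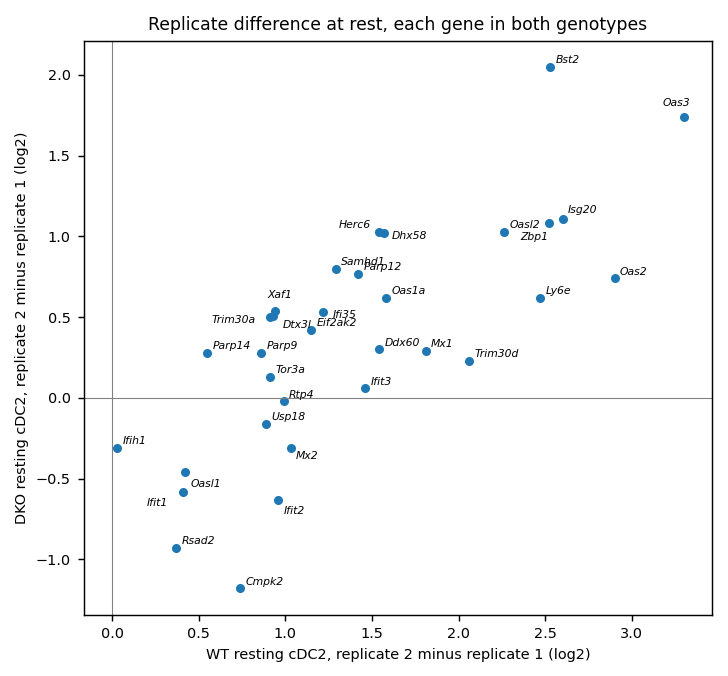
The difference between replicate 2 and replicate 1 of resting cDC2 (log2) for each of 33 interferon-stimulated genes, in WT on the horizontal and in DKO on the vertical axis. All 33 points lie at or right of 0.03 in WT, while Cmpk2, Rsad2, Ifit2, Ifit1 and Oasl1 lie below 0 in DKO and Bst2 and Oas3 lie highest.

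Ordered by the mean of the 4 resting cDC2 arrays, the brightest clusters were those of Oasl1 at 11.74, Ifit1 at 11.70 and Trim30a at 11.50. The dimmest were Eif2ak2 at 7.78, Mx1 at 7.59 and Trim30d at 6.31. Probes of different genes differ in response, so this is an order of cluster intensities and not of RNA amounts. Without WT replicate 2 the first 3 and last 2 places were the same and Eif2ak2 moved from place 31 to 29. Bst2 moved from place 8 to 11 and Ly6e from 16 to 22.

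The 3 brightest encode a 2'-5' oligoadenylate synthetase-like protein (Oasl1), a binder of RNA that lacks the host's cap methylation (Ifit1) and a TRIM-family regulator of innate signalling (Trim30a). Oasl1 read 12.01 and 12.44 in resting WT, 11.48 and 11.02 in resting DKO, 12.94 and 13.04 in activated WT, 12.86 and 12.83 in activated DKO cells and 11.58 in cDC1. Ifit1 read 12.03 and 12.43 in resting WT, 11.47 and 10.89 in resting DKO, 12.88 and 12.78 in activated WT, 12.91 and 12.60 in activated DKO cells and 10.52 in cDC1. For both genes the resting DKO arrays lay below the resting WT arrays, and all activated arrays lay above all resting ones. Trim30a read 11.35 and 12.26 in resting WT, 10.95 and 11.45 in resting DKO, 12.65 and 12.63 in activated WT, 12.57 and 12.57 in activated DKO cells and 11.02 in cDC1. Its resting genotypes overlapped, while its activated arrays read 12.57 to 12.65.

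Among the dimmest, Eif2ak2 encodes PKR, the kinase that halts translation on double-stranded RNA, Mx1 a dynamin-like GTPase against RNA viruses, and Trim30d a relative of Trim30a. Eif2ak2 read 7.56 and 8.71 in resting WT, 7.22 and 7.64 in resting DKO, 9.35 and 9.40 in activated WT, 9.68 and 9.10 in activated DKO cells and 7.16 in cDC1. Mx1 read 7.34 and 9.15 in resting WT, 6.80 and 7.08 in resting DKO, 9.76 and 10.12 in activated WT, 9.84 and 9.50 in activated DKO cells and 7.54 in cDC1. Every resting value of both genes lay below every activated one. Trim30d read 6.06 and 8.12 in resting WT, 5.42 and 5.65 in resting DKO, 9.35 and 10.42 in activated WT, 10.07 and 9.34 in activated DKO cells and 6.01 in cDC1. The resting DKO arrays lay below the brightness limit and resting WT replicate 1 close to it, while resting WT replicate 2 and all activated arrays lay well above it. Probes of close paralogues in these families, such as Trim30a and Trim30d or Oas1a and its neighbours, may share targets, which was not tested.

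**Figure D2:**
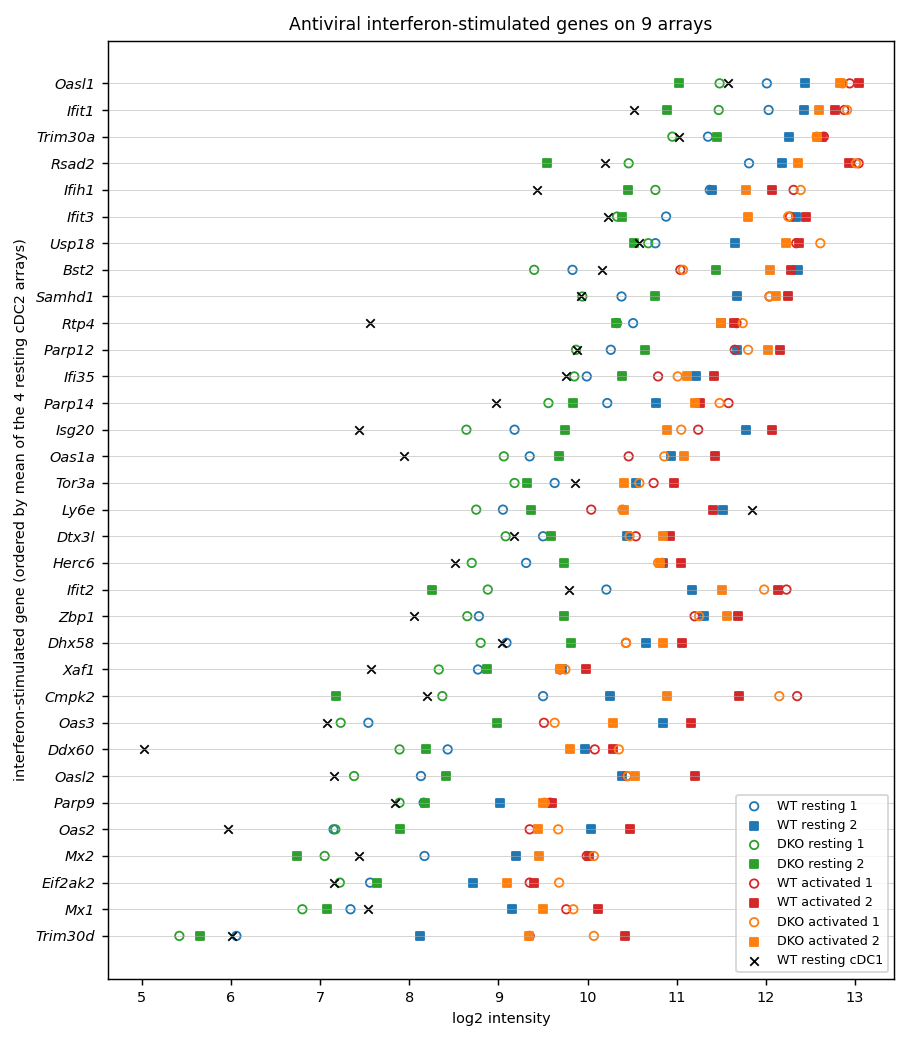
The log2 intensity of 33 interferon-stimulated genes on each of 9 arrays, 1 row a gene, ordered by the mean of the 4 resting cDC2 arrays. Open circles are replicate 1, filled squares replicate 2 and crosses the cDC1 array. Resting DKO points lie furthest left among the cDC2 arrays in most rows, the resting WT replicate 2 squares lie close to the activated points in many rows, and the activated points of both genotypes lie together.

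Promoter sequence was also examined, as a description of its letters only. RefSeq windows of assembly GRCm38.p6, from 250 bases before to 50 after the transcription start, were given for 24 of the 36 genes. The ISRE core was searched on both strands as GAAA, any 2 bases, then GAAA. It was found in 12 of 24 windows (50%), against 3.99% of 27025 genes with a window and 3.44% of all 32851 windows. GAS letters (TTCNNNGAA) were in 7 of 24 (29.2%), against 9.55% of genes, and AP-1 letters (TGANTCA) in 7 of 24 (29.2%), against 8.97% of genes. Neither composite of AP-1 and IRF letters (AP-1 directly after GAAA, or 4 bases after TTTC) was in any of the 24 windows, against 0.141% and 0.133% of genes. In the Bst2 window a GAS match overlaps the first ISRE core. The stretches below were chosen to show 1 gene with a large genotype difference at rest (Rsad2), 1 of the brightest at rest (Ifit1), those with the largest replicate difference at rest in WT (Oas3) and in DKO (Bst2), the largest difference from cDC1 (Ddx60) and the largest response (Trim30d). Capitals mark the ISRE core letters on either strand and the AP-1 letters.
Rsad2: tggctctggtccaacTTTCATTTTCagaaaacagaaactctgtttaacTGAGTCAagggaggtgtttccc
Ifit1: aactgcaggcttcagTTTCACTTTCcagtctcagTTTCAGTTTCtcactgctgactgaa
Oas3: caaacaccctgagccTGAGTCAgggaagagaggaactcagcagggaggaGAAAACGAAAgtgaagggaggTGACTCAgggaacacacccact
Bst2: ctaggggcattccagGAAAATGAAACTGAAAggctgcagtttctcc
Ddx60: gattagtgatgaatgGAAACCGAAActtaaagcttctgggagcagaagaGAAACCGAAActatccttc
Trim30d: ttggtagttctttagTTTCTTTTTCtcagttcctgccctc
All are 5′ to 3′ on the gene's strand. They lie at chr12:26456518-26456587, reverse strand (Rsad2), chr19:34640770-34640828, forward strand (Ifit1), chr5:120777692-120777783, reverse strand (Oas3), chr8:71537572-71537617, reverse strand (Bst2), chr8:61928019-61928086, forward strand (Ddx60) and chr7:104507866-104507905, reverse strand (Trim30d). Rsad2 holds 1 ISRE core and 1 AP-1 match, Ifit1 2 ISRE cores, Oas3 1 ISRE core between 2 AP-1 matches, Bst2 2 overlapping ISRE cores, Ddx60 2 and Trim30d 1. The windows of Ifit2 and Cmpk2, which had the largest genotype differences at rest, hold no ISRE core letters, and neither does that of Oasl1, the brightest at rest. A match is a description of the letters and not a shown binding site.

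In resting cDC2 the antiviral genes read lower in DKO than in WT, but none of the 33 passed the threshold in the fit without the replicate number. The differences ran from -2.12 for Ifit2 to -0.49 for Ifi35 with a median of -0.85, and all 33 were below 0, as were 45.7% of all genes tested. By limma, 0 of 33 had an adjusted p below 0.05 (adjusted p from 0.285 to 1) where 0.0186% of all genes were called lower. An unadjusted p below 0.05 was reached by 12 of the 33 and by 6.59% of all genes. Over all genes tested, samples with the same replicate number deviated together, so a fit with that number as a block was also made. It called 1 of the 33 lower, Rsad2 (adjusted p = 0.0422), where 0.419% of all genes were called lower. That fit assumes the same replicate shift in every group, which Rsad2 did not show. For Rsad2, replicate 2 minus replicate 1 was 0.37 and -0.93 in resting WT and DKO, and -0.11 and -0.64 in activated WT and DKO. Without WT replicate 2 the median was -0.17, and without WT replicate 1 it was -1.56, with 0 genes of the list called either way. With the block and without WT replicate 2 the median was -0.31 and again 0 were called. By same-numbered arrays, DKO minus WT had a median of -0.44 for replicate 1 (32 of 33 genes below 0, from -1.35 to 0.02) and -1.24 for replicate 2 (33 of 33, from -3.06 to -0.81).

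A smaller set lay well below either WT array. The mean of the DKO arrays minus WT replicate 1 was -1.81 for Rsad2, -1.73 for Cmpk2, -1.64 for Ifit2 and -1.28 for Mx2. These 4, with Trim30d, had the largest differences at rest. By contrast, the DKO mean lay above WT replicate 1 by 0.59 for Bst2, 0.57 for Oas3 and 0.41 for Zbp1, while its differences from WT replicate 2 were -1.94, -2.74 and -2.11. The median over the list was -0.17 against WT replicate 1, with 24 of 33 below 0, and -1.56 against replicate 2. The 15 genes with both DKO arrays below both WT arrays were Cmpk2, Ddx60, Ifih1, Ifit1, Ifit2, Ifit3, Mx1, Mx2, Oasl1, Parp14, Rsad2, Rtp4, Tor3a, Trim30d and Usp18, where 13.4% of all genes tested had that order.

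Rsad2 encodes viperin, a radical SAM enzyme that makes a chain-terminating nucleotide, and its promoter letters are shown above. Its values were 11.81 and 12.18 in resting WT, 10.46 and 9.54 in resting DKO, 13.04 and 12.93 in activated WT, 13.01 and 12.36 in activated DKO cells and 10.19 in cDC1. Both resting DKO arrays lay below both WT arrays, while the activated arrays of both genotypes read 12.36 to 13.04. The difference at rest was -1.99 ± 0.34 (SE, 2 arrays against 2, limma adjusted p = 0.296, or 0.0422 with the block). Cmpk2, which encodes a mitochondrial nucleotide kinase, read 9.50 and 10.25 in resting WT, 8.37 and 7.18 in resting DKO, 12.35 and 11.70 in activated WT, 12.15 and 10.89 in activated DKO cells and 8.20 in cDC1. Both resting DKO values of Cmpk2 lay below both WT values, and the lowest was DKO replicate 2. The difference was -2.10 ± 0.57 (limma adjusted p = 0.582, or 0.103 with the block).

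Ifit2, an RNA-binding protein that forms complexes with IFIT1 and IFIT3, read 10.21 and 11.17 in resting WT, 8.88 and 8.25 in resting DKO, 12.23 and 12.13 in activated WT, 11.98 and 11.51 in activated DKO cells and 9.79 in cDC1. It was lower in DKO cells in both states with no overlap of arrays. Its difference at rest was -2.12 ± 0.36 (limma adjusted p = 0.285, or 0.0639 with the block), the largest of the list. Mx2, the second Mx GTPase, read 8.17 and 9.20 in resting WT, 7.05 and 6.74 in resting DKO, 9.99 and 10.02 in activated WT, 10.07 and 9.45 in activated DKO cells and 7.44 in cDC1. Its genotypes were apart at rest and overlapped after activation. The difference at rest was -1.79 ± 0.36 for Mx2 (limma adjusted p = 0.414, or 0.0882 with the block) and -1.55 ± 0.69 for Trim30d (0.8, or 0.261). For Trim30d the value was -0.52 without WT replicate 2 and -2.58 without WT replicate 1, so 1 array set most of its size. Ifih1, whose WT replicates differed by 0.03, read 11.37 and 11.40 in resting WT and 10.76 and 10.45 in resting DKO cells. Its difference of -0.78 ± 0.22 (limma adjusted p = 0.595, or 0.0826 with the block) compares with -0.77 against WT replicate 1 alone and -0.80 against replicate 2 alone.

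**Figure D3:**
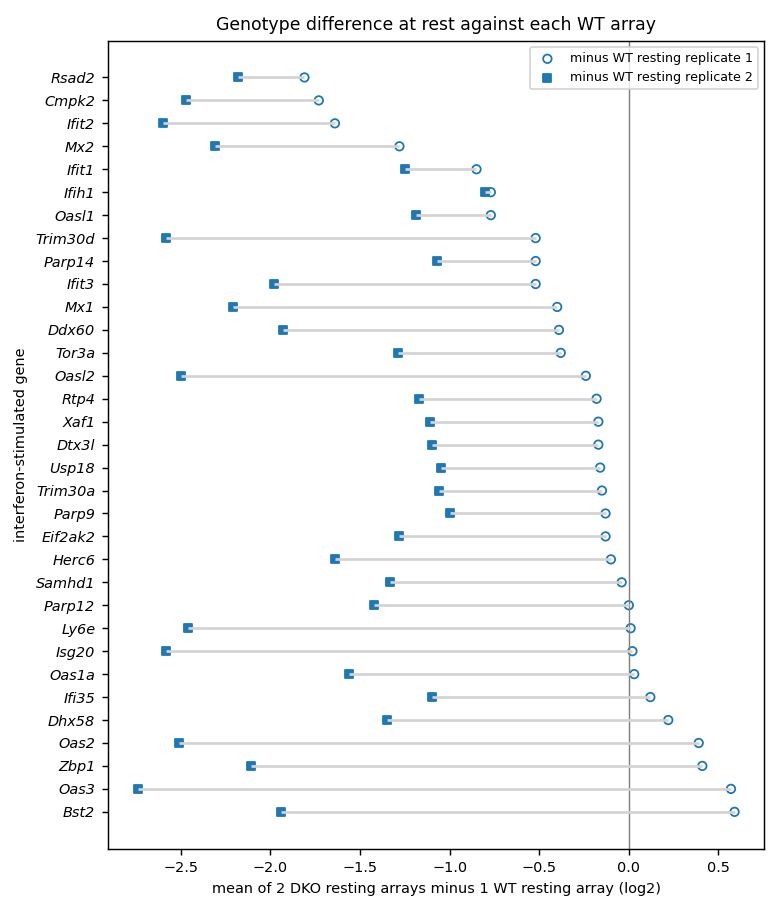
The mean of the 2 resting DKO arrays minus each resting WT array (log2), 1 row a gene, with open circles for WT replicate 1 and filled squares for WT replicate 2. Rsad2, Cmpk2, Ifit2 and Mx2 lie below -1.2 against both WT arrays, while Bst2, Oas3, Zbp1 and Oas2 lie above 0 against replicate 1 and below -1.9 against replicate 2.

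By role, the median difference at rest was -1.25 in the IFIT family (Ifit1, Ifit2 and Ifit3), -1.55 for the Mx GTPases, -1.06 for 5 members of the OAS family and -1.64 for the nucleotide and nucleic acid enzymes (Rsad2, Cmpk2, Samhd1 and Isg20). It was -0.78 for 5 nucleic acid sensors and their partners, -0.67 for the PARP proteins with DTX3L and -0.68 for Bst2, Ly6e and Rtp4. Over all genes tested the median was 0.01. Without WT replicate 2 these medians were -0.85, -0.84, 0.03, -0.88, -0.13, -0.15 and 0.01 in the same order, and those of the OAS family and of Bst2, Ly6e and Rtp4 were then no longer below 0. Of the markers of other cell types, 3 lists also read lower at rest, with 0 genes called by limma in each without the block: the median difference was -0.58 over 8 plasmacytoid dendritic cell markers tested, -0.59 over 8 macrophage markers and -0.68 over 7 monocyte markers (-0.27, -0.36 and -0.54 without WT replicate 2). The other lists had medians of 0.15 (B and plasma cells, 2 genes tested), 0.07 (T cells, 3), 0.23 (NK cells, 2), 0.10 (neutrophils, 5) and -0.01 (erythroid cells, 1). Summed linear intensities of the macrophage list were 2631 and 3088 in resting WT and 2346 and 2050 in resting DKO, and those of the monocyte list 3017 and 3858 against 2018 and 2283. The plasmacytoid list (11 of 13 with a cluster) summed to 2610 and 7030 in WT and 1890 and 3826 in DKO, and includes Bst2, itself one of the 33 genes. Its defining marker Siglech read 5.66 to 5.97 on all 9 arrays, near the brightness limit, with Ly6d and Cd209d below it everywhere. With the block 1 gene of the plasmacytoid list was called lower, Tcf4, at 8.79 and 9.12 in resting WT and 8.06 and 8.10 in resting DKO cells (limma adjusted p = 0.348, or 0.0316 with the block). Others of that list went the other way without being called, with differences of 0.56 for Spib and 0.29 for Atp1b1. The part of such cells in the antiviral genes' difference was not tested.

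After activation the genotypes lay close together. The differences between DKO and WT ran from -0.68 for Isg20 to 0.06 for Usp18 with a median of -0.11, and 30 of 33 were below 0. None of the 33 passed by limma (adjusted p of 1 for all, 0 with an unadjusted p below 0.05), where 0.0186% of all genes were called lower. With the block 0 of 33 were called and 0.289% of all genes were called lower. Same-numbered arrays gave a median of 0.04 for replicate 1, with 20 of 33 above 0, and -0.31 for replicate 2, with 33 of 33 below 0 (from -1.18 to -0.07). Both DKO arrays lay below both WT arrays for Herc6, Ifit2, Ifit3, Isg20, Oasl1, Parp9, Tor3a and Trim30a, 8 of 33 where 13.5% of all genes had that order.

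The largest values after activation were those of Isg20, Cmpk2, Ifit2, Oas3 and Tor3a. Isg20, an exonuclease that degrades single-stranded RNA, read 9.18 and 11.78 in resting WT, 8.64 and 9.75 in resting DKO, 11.24 and 12.07 in activated WT, 11.05 and 10.89 in activated DKO cells and 7.44 in cDC1. Its difference after activation was -0.68 ± 0.83, smaller than its standard error. Oas3, a synthetase of the 2-5A that activates RNase L, read 7.54 and 10.84 in resting WT, 7.23 and 8.98 in resting DKO, 9.51 and 11.16 in activated WT, 9.63 and 10.28 in activated DKO cells and 7.08 in cDC1. In all 4 cDC2 groups replicate 2 of Oas3 was the higher. Its difference after activation was -0.38 ± 1.16. Tor3a, an ATPase of the torsin family, read 9.63 and 10.54 in resting WT, 9.18 and 9.32 in resting DKO, 10.74 and 10.97 in activated WT, 10.58 and 10.41 in activated DKO cells and 9.86 in cDC1. Its arrays did not overlap between genotypes in either state, with differences of -0.84 ± 0.28 at rest and -0.37 ± 0.28 after activation. For Cmpk2 and Ifit2 the activated differences were -0.51 ± 0.57 and -0.44 ± 0.36.

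Averaged over both states, DKO minus WT had a median of -0.51 and all 33 genes were below 0. By limma 0 of 33 passed (adjusted p from 0.161 to 0.904), where 0.0186% of all genes were called lower. An unadjusted p below 0.05 was reached by 10 of the 33 and by 10.8% of all genes. With the block 2 of the 33 fell, Rsad2 by 1.15 ± 0.20 (adjusted p = 0.0298) and Ifit2 by 1.28 ± 0.25 (adjusted p = 0.0385), where 2.6% of all genes were called lower. The block assumes the same replicate shift in every group, which the genes called did not show. Replicate 2 minus replicate 1 was 0.96 in resting WT and -0.63 in resting DKO for Ifit2. It was 0.37 and -0.93 for Rsad2, and 0.74 and -1.18 for Cmpk2. With the block and without resting WT replicate 2, the genes called were Ifit2 at -0.94 ± 0.12 (adjusted p = 0.0265) and Cmpk2 at -0.86 ± 0.13 (adjusted p = 0.0413), while Rsad2 was at -0.91 ± 0.16 (adjusted p = 0.0519). Ifit2 was thus the gene called in both. Without that array and without the block the median of the list was -0.14, with 26 of 33 below 0 and 0 called. In the block fit with all cDC2 arrays, 4 of 8 macrophage markers and 3 of 7 monocyte markers were called lower. Among them were C1qb at -0.80 (limma adjusted p = 0.0108) and Fcgr4 at -1.15 (limma adjusted p = 0.00831). Fcgr4 also rose with activation, by 2.52 in WT and 1.93 in DKO. Of the macrophage list, Spic and Adgre1 went the other way without being called, at 0.47 and 0.03. Called lower too were Ccr9 and Tcf4 of the plasmacytoid list and Cd300a, Cd4 and Mgl2 of the cDC2 list. So were Cadm1, Cd36 and Itgae of the cDC1 list, while Tmem176b (cDC2) and Flt3 (all cDC) were called higher. The part of differing cell types in the values of Rsad2 and Ifit2 was not tested.

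From resting to activated arrays, few of these genes rose past the threshold in WT, where the resting arrays disagreed, and more did in DKO. The DKO response minus the WT response was called for 0 of 33 genes, so these counts do not show a difference between the genotypes. Since the culture time of resting cells is not given, effects of IFN-gamma and LPS and of culture cannot be told apart. In WT the response ran from 0.44 for Ly6e to 2.79 for Trim30d with a median of 0.94, and all 33 were above 0, against 39.8% of all genes and a median of -0.07 over all genes. By limma 1 of 33 rose, Ifit2 by 1.50 ± 0.36 (adjusted p = 0.0497), where 3.97% of all genes were called higher. With the block 19 of 33 rose, where 11.4% of all genes were called higher. Leaving out resting WT replicate 2 gave a median of 1.65, and leaving out resting WT replicate 1 gave a median of 0.32. With the block and without replicate 2, the response of Bst2 was 1.12 ± 0.32. Both activated arrays lay above both resting arrays for 20 of 33 genes, where 19.9% of all genes had that order.

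In DKO cells the response ran from 0.95 for Ifi35 to 4.17 for Trim30d with a median of 1.65. By limma 18 of 33 rose (adjusted p from 0.00568), where 5.82% of all genes were called higher and the median over all genes was -0.09. With the block 32 of 33 rose, where 13% of all genes were called higher, and Ly6e did not pass at 1.35 ± 0.51 (adjusted p = 0.0797). Leaving out 1 of the 4 DKO arrays left 2 to 9 of the 33 called, with 2 when activated DKO replicate 1 was left out and 9 without activated DKO replicate 2. Resting WT replicate 2 enters this comparison through the shared spread only, so leaving it out does not alter the sizes of the DKO responses. Both activated arrays lay above both resting arrays for 32 of 33 genes, all but Bst2, where 21% of all genes had that order.

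Trim30d gave the largest response in both genotypes, at 2.79 ± 0.69 in WT (limma adjusted p = 0.0539, or 0.0124 with the block) and 4.17 ± 0.69 in DKO (adjusted p = 0.0151). Its resting DKO mean of 5.54 lay below the brightness limit of 5.94, so the DKO value is not an exact size. Measured from the limit, the activated DKO mean lay 3.77 higher. Cmpk2 was next in both, at 2.15 ± 0.57 in WT (limma adjusted p = 0.0625, or 0.0131 with the block) and 3.75 ± 0.57 in DKO (adjusted p = 0.0119). The order then parted. In WT it went on with Mx1 at 1.70 ± 0.54, Oasl2 at 1.56 ± 0.73 and Ifit2 at 1.50 ± 0.36. Without resting WT replicate 2, which leaves 1 array in that group, the WT response was 3.83 ± 0.50 for Trim30d and 2.53 ± 0.70 for Cmpk2. It was 2.60 ± 0.24 for Mx1, 2.69 ± 0.49 for Oasl2 and 1.98 ± 0.32 for Ifit2. Oas3 at 2.79, Oas2 at 2.77 and Zbp1 at 2.66 then also lay above Cmpk2, so the WT order after Trim30d depended on that array. In DKO the order went on with Ifit2 at 3.18 ± 0.36 (limma adjusted p = 0.00568), Mx2 at 2.86 ± 0.36 (adjusted p = 0.00761) and Mx1 at 2.73 ± 0.54 (adjusted p = 0.0246). Neighbours in these orders did not differ beyond their standard errors.

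Oasl2, a relative of the oligoadenylate synthetases, read 8.13 and 10.39 in resting WT, 7.38 and 8.41 in resting DKO, 10.44 and 11.20 in activated WT, 10.45 and 10.53 in activated DKO cells and 7.16 in cDC1. Resting WT replicate 2 nearly reached the activated arrays, and the DKO response of 2.60 ± 0.73 did not pass (limma adjusted p = 0.0645, or 0.00598 with the block). With all arrays, the smallest responses were those of Ly6e, Ifi35, Bst2 and Xaf1. Without resting WT replicate 2 the WT responses of Ly6e and Bst2 were 1.68 and 1.83. The smallest in WT were then 0.80 for Ifit1, 0.82 for Ifih1 and 0.97 for Oasl1. Ly6e, a surface protein of the LY6 family that limits coronavirus entry, read 9.05 and 11.52 in resting WT, 8.75 and 9.36 in resting DKO, 10.04 and 11.41 in activated WT, 10.39 and 10.41 in activated DKO cells and 11.84 in cDC1. Bst2 (tetherin, which holds budding virions on the cell surface) read 9.83 and 12.36 in resting WT, 9.40 and 11.44 in resting DKO, 11.04 and 12.28 in activated WT, 11.07 and 12.05 in activated DKO cells and 10.16 in cDC1. For both genes the difference between the resting WT replicates exceeded the WT response. Ifi35 read 9.99 and 11.21 in resting WT, 9.85 and 10.38 in resting DKO, 10.79 and 11.42 in activated WT, 11.01 and 11.11 in activated DKO cells and 9.76 in cDC1. Xaf1, which can inhibit the anti-apoptotic protein XIAP, read 8.77 and 9.71 in resting WT, 8.33 and 8.87 in resting DKO, 9.69 and 9.98 in activated WT, 9.75 and 9.69 in activated DKO cells and 7.57 in cDC1. Resting WT replicate 2 reached the lower activated WT array for both.

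By role, 2 of 3 IFIT genes, both Mx genes and 1 of 5 OAS genes (Oasl1) rose by limma in DKO cells. So did 3 of 5 nucleic acid sensors and partners (Ifih1, Ddx60 and Eif2ak2). Among nucleotide and nucleic acid enzymes 3 of 4 rose (all but Isg20), as did 2 of 4 PARP and DTX3L genes and both TRIM genes. Usp18, which removes ISG15 from proteins, Rtp4 and Tor3a rose too. Of all genes tested, 5.82% were called higher in that comparison. The OAS genes had a median response of 1.85 in DKO and 1.14 in WT, and the IFIT genes 1.66 and 0.75. Without resting WT replicate 2 the WT medians were 2.69 and 1.48, so that of the OAS genes then lay above the DKO median. With the block all 5 OAS genes rose in DKO cells and 2 of 5 in WT, where 13% and 11.4% of all genes were called higher.

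The responses are shown by array pair because the replicates differed. Activated minus resting had a median of 1.39 for WT replicate 1 (from 0.80 to 3.29), 0.48 for WT replicate 2 (from -0.11 to 2.29, with Ly6e and Bst2 below 0), 1.92 for DKO replicate 1 (from 1.17 to 4.65) and 1.37 for DKO replicate 2 (from 0.60 to 3.70). WT replicate 2 gave the smallest median of the 4 pairs, and DKO replicate 2 lay close to WT replicate 1. The DKO response minus the WT response (interaction) was above 0 for all 33, with a median of 0.72, and was largest for Rsad2 at 1.70 ± 0.49, Ifit2 at 1.68 ± 0.51 and Cmpk2 at 1.59 ± 0.80. By limma 0 of 33 passed (adjusted p of 1 for all, 5 with an unadjusted p below 0.05) and 0% of all genes were called higher, also with the block (0%). Without resting WT replicate 2 the median was 0.08, with 21 of 33 above 0, and the values of Rsad2, Ifit2 and Cmpk2 were 1.51 ± 0.56, 1.20 ± 0.41 and 1.22 ± 0.90. Without resting WT replicate 1 the median was 1.49. The WT and DKO responses share no array, but the interaction at each gene uses the same resting arrays as the genotype difference at rest.

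**Figure D4:**
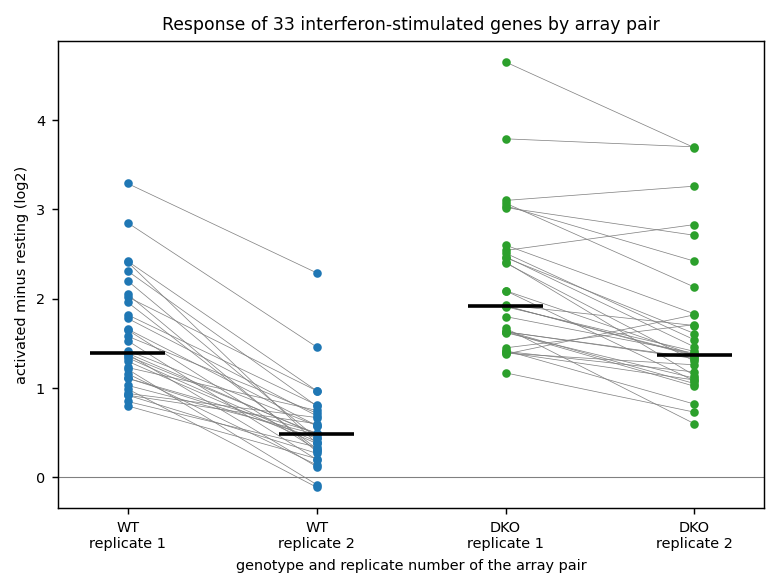
The difference between the activated and the resting array of the same replicate number (log2) for 33 interferon-stimulated genes, in WT (blue) and DKO (green), with grey lines joining a gene within a genotype and black bars at the medians of 1.39, 0.48, 1.92 and 1.37. The WT replicate 2 pair lies lowest, with most genes below 1.

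The single cDC1 array read lower than cDC2 for most of these genes. The resting WT cDC1 minus cDC2 difference had a median of -1.25, from -4.18 for Ddx60 to 1.56 for Ly6e, against a median of -0.01 over all genes. By limma 7 of 33 were lower in cDC1 and 0 higher, where 6.56% of all genes were called lower. With 1 cDC1 array, its spread is assumed to be that of the other groups. Without resting WT replicate 1 the median was -1.91, and without replicate 2 it was -0.46, each against 1 cDC2 array. The cDC1 array lay below both resting WT cDC2 arrays for 29 of 33 genes, where 40% of all genes had that order, the others being Bst2, Ly6e, Mx1 and Tor3a.

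Ddx60, a helicase that aids RNA sensing, read 5.02 in cDC1, below the brightness limit, and 8.43 and 9.97 in resting WT cDC2, a difference of -4.18 ± 0.58 (limma adjusted p = 0.00829). Since it entered the tests through cDC2, a difference was built into its selection and its size is not exact. Measured from the brightness limit, the cDC2 mean lay 3.26 higher. Rtp4, a chaperone of receptors and a regulator of interferon signalling, read 7.56 against 10.51 and 11.50, a difference of -3.44 ± 0.36 (limma adjusted p = 0.0037). Ifih1 read 9.43 against 11.37 and 11.40 (-1.96 ± 0.27, limma adjusted p = 0.00793). For Rtp4 and Ifih1 the cDC1 value minus the lower cDC2 array was -2.95 and -1.94. The other 4 called were Rsad2 at -1.81 ± 0.42, Ifit1 at -1.71 ± 0.29, Xaf1 at -1.67 ± 0.40 and Parp14, an ADP-ribosyltransferase, at -1.52 ± 0.27 (limma adjusted p from 0.014 to 0.0415). Against WT replicate 1 alone those 4 differences were -1.62, -1.51, -1.20 and -1.25, and without WT replicate 2 Rsad2 and Xaf1 no longer passed (limma adjusted p = 0.115 and 0.0711). Ly6e went the other way, at 11.84 in cDC1 against 9.05 and 11.52, a difference of 1.56 ± 1.00 that did not pass (limma adjusted p = 0.358).

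Genes upstream in the pathway were followed in lists by role. Of 20 interferon ligand genes, 16 had a cluster of their own and 5 were bright enough to be tested, and 0 of 5 were called by limma in any comparison (at most 1 with an unadjusted p below 0.05). With the block 1 gene, Ifna16, was called lower in the WT response, but it read 5.13 to 5.74 on the cDC2 arrays, below the brightness limit, and entered the tests through cDC1. Ifnb1, interferon-beta, read 4.40 and 4.58 in resting WT, 4.15 and 4.55 in resting DKO, 5.76 and 4.92 in activated WT, 6.37 and 4.71 in activated DKO cells and 4.71 in cDC1. No group mean of Ifnb1 reached the brightness limit, with the higher activated values in replicate 1 of both genotypes.

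Of 9 receptor and Janus kinase genes, 0 were called by limma between genotypes at rest or after activation (0 with an unadjusted p below 0.05 in either), with or without the block. Ifngr1, the ligand-binding chain of the IFN-gamma receptor, fell by 1.04 ± 0.15 in WT (limma adjusted p = 0.0165) and by 1.22 ± 0.15 in DKO (adjusted p = 0.00788) on the log2 scale. Ifnar1 differed between states by -0.57 ± 0.18 in WT and -0.55 ± 0.18 in DKO (limma adjusted p = 0.0899 and 0.0862, or 0.00994 and 0.00947 with the block). Ifnar2 read 9.64 to 10.12 on all 9 arrays. No comparison called it, with or without the block.

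Of the STAT and IRF factors, 7 were tested. Irf1, a factor induced by IFN-gamma, rose by 2.32 ± 0.16 in WT (limma adjusted p = 0.00311) and by 2.14 ± 0.16 in DKO (adjusted p = 0.00219), and Irf2 rose in both by less. Irf7, which amplifies interferon production, read 10.27 and 12.27 in resting WT, 9.93 and 10.62 in resting DKO, 11.77 and 12.52 in activated WT, 11.98 and 11.94 in activated DKO cells and 10.37 in cDC1. It carried the same high resting WT replicate 2 value as the antiviral genes. Its response was 0.87 ± 0.64 in WT (limma adjusted p = 0.403) and 1.69 ± 0.64 in DKO (adjusted p = 0.129, or 0.02 with the block). Without resting WT replicate 2 its WT response was 1.87 ± 0.40 (limma adjusted p = 0.0593). Stat2 read 11.03 and 12.02 in resting WT and 10.67 and 10.96 in resting DKO cells, a difference of -0.71 ± 0.32 (limma adjusted p = 0.806). Its response was 0.40 ± 0.32 in WT and 1.04 ± 0.32 in DKO (limma adjusted p = 0.45 and 0.0832, the latter 0.00715 with the block). Without resting WT replicate 2 the Stat2 difference at rest was -0.21 ± 0.22 and its WT response 0.90 ± 0.22. Irf9, the DNA-binding partner of STAT2, read 9.13 and 9.79 in resting WT and 9.13 and 9.45 in resting DKO, with no called difference.

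Of 12 sensors and adaptors tested, 2 rose in WT (Myd88 and Tbk1), and 3 rose and 1 fell in DKO. Of all genes tested, 3.97% were called higher in WT and 5.82% in DKO, and 848 of 10728 were called lower in DKO. Myd88, the adaptor of most Toll-like receptors, rose by 1.29 ± 0.24 in WT (limma adjusted p = 0.028) and 1.45 ± 0.24 in DKO (adjusted p = 0.0149). Tlr7 was the largest difference of this list between subsets, at 4.08 in cDC1 against 8.42 and 9.07 in resting WT cDC2 (-4.67 ± 0.40, limma adjusted p = 0.00186). The cDC1 value lay below the brightness limit, from which the cDC2 mean lay 2.81 higher. Since Tlr7 entered the tests through cDC2, a difference was built into its selection and its size is not exact. Of 7 negative regulators, 3 rose in WT and 4 in DKO, against the same shares of all genes called higher. Socs3, an inhibitor of Janus kinase signalling, rose by 2.50 ± 0.25 in WT and 2.37 ± 0.25 in DKO (limma adjusted p = 0.0068 and 0.00481). By limma, 0 genes of these 5 lists were called between genotypes at rest or after activation, with or without the block (at most 2 of a list had an unadjusted p below 0.05 without it).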

How the data were processed

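RNA of 9 samples was labelled with biotin and measured on 9 Affymetrix gene arrays. The authors summarised the arrays with Affymetrix Expression Console and RMA (versions not stated), per the submitters' processing notes. The deposited table gives a linear intensity for each of 28853 transcript clusters on each array. Its arrays have nearly the same distribution, with gaps at equal rank of up to 0.31 in log2 (median 0.06), so a difference in total RNA between groups would not be visible. The design had allowed for either scale, and log2 was taken before any test.

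Clusters with 1 gene symbol (21789) entered, clusters with several (1621) or none (5443) did not, and of 999 genes with several clusters the brightest was used. Groups and replicate numbers come from the sample titles. Group means of the 5 groups were fitted jointly on the 9 arrays (limma 3.58.1, R 4.3.3; lmFit, then eBayes), and two-sided p-values received a Benjamini-Hochberg adjustment across the 10728 genes tested. The threshold was an adjusted p below 0.05. The fit was tested on simulated data for the DKO response only. The simulated arrays varied independently and carried no shared replicate shift, so that test does not bear on such a shift. Same-numbered arrays deviated together in every pair of cDC2 groups (r = 0.45 to 0.69 across genes for replicate 2 minus replicate 1), so the replicate number was also used as a block on the 8 cDC2 arrays. The pairing is read from the numbers in the titles and this check.

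The genes, lists and motifs were chosen with earlier results of these data known. Values on every array are given for the genes with the 3 highest and 3 lowest resting levels, the 5 largest and 3 smallest responses in each genotype, the 5 largest genotype differences in each state, and those past the threshold between genotypes. Ifih1, Ddx60 and Rtp4 were singled out after their values were seen. Promoter windows are those of RefSeq for GRCm38.p6. The alternatives were quantile normalization, median centring, no filter, a stricter filter (65th percentile), the mean of all clusters of a gene, an intensity trend with robust estimation, a fit of the compared groups alone, the block, and leaving out each array.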

Additional observations from a re-analysis of the deposited data

How the results depend on the processing

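With the replicate number as a block, limma called 79 of all genes in place of 2 between genotypes at rest, 61 in place of 2 after activation and 599 in place of 2 in the mean of both states, and of the 33 genes 1, 0 and 2. For the responses it called 3791 in place of 1131 in WT (19 in place of 1 of the 33) and 4080 in place of 1472 in DKO (32 in place of 18). With the block and without resting WT replicate 2, chosen after seeing the data, it called 0 genes at rest, 230 in the mean of both states (2 of the 33), 2633 in the WT response (32 of the 33) and 3856 in the DKO response (33 of the 33). The block called nothing else among the 33 between genotypes or in the interaction. In fits of the compared groups alone, which leave fewer residual degrees of freedom, 0 genes were called at rest, 0 after activation, 5 in the WT response (0 of the 33), 757 in the DKO response and 0 between subsets (0 of the 33). The single WT response call, Ifit2, was lost with quantile normalization, median centring, no filter and the trend with robust estimation (0 of the 33 each), and a stricter filter gave 4 of the 33; the cause was not tested.

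Leaving out 1 array gave from 0 to 6 genes at rest, 0 after activation, and 2 to 4 in the mean of both states. It gave 63 to 550 genes in the WT response (0 to 17 of the 33), 217 to 1276 in the DKO response (2 to 26 of the 33, the highest without either resting WT array, added after seeing the data) and 798 to 828 between subsets (5 to 18 of the 33). The median over the 33 ran from -1.56 to -0.17 at rest, from 0.32 to 1.65 in the WT response, from 0.08 to 1.49 in the interaction and from -1.91 to -0.46 between subsets, with both ends of each range set by the resting WT arrays.

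Directions of single genes turned with 1 array, always of differences that did not pass on either side. The genotype difference at rest turned positive without resting WT replicate 2 in 9 of 33 genes, with ranges over the arrays left out of Bst2 (-1.94 to 0.59), Oas1a (-1.56 to 0.03), Oas2 (-2.51 to 0.39), Oas3 (-2.74 to 0.57), Dhx58 (-1.35 to 0.22), Zbp1 (-2.11 to 0.41), Isg20 (-2.58 to 0.02), Ly6e (-2.46 to 0.01) and Ifi35 (-1.10 to 0.12). In the mean of both states the ranges crossed 0 for Bst2 (-1.02 to 0.25), Oas1a (-0.76 to 0.03), Oas2 (-1.43 to 0.01), Oas3 (-1.56 to 0.09), Dhx58 (-0.73 to 0.05), Zbp1 (-1.07 to 0.18) and Ifi35 (-0.57 to 0.04). The WT response turned negative without resting WT replicate 1 for Oas2 (-0.13 to 2.77), Oas3 (-0.51 to 2.79), Isg20 (-0.13 to 2.47), Bst2 (-0.70 to 1.83), Ly6e (-0.80 to 1.68) and Ifi35 (-0.10 to 1.12). The interaction crossed 0 for Oas3 (-0.94 to 2.36), Dhx58 (-0.33 to 1.24), Bst2 (-0.69 to 1.84), Herc6 (-0.05 to 1.49), Oas2 (-0.75 to 2.15), Oasl2 (-0.09 to 2.17), Zbp1 (-0.44 to 2.08), Samhd1 (-0.03 to 1.26), Isg20 (-0.70 to 1.90), Ly6e (-0.33 to 2.14) and Ifi35 (-0.17 to 1.05). The subset difference crossed 0 for Mx1 (-1.60 to 0.20), Bst2 (-2.20 to 0.33) and Tor3a (-0.68 to 0.23). After activation, where the genotypes lay close together, the difference crossed 0 for Usp18 (-0.13 to 0.25), Dhx58 (-0.43 to 0.21), Zbp1 (-0.28 to 0.21), Eif2ak2 (-0.28 to 0.31), Dtx3l (-0.26 to 0.13), Bst2 (-0.72 to 0.52), Ifit1 (-0.23 to 0.09), Mx2 (-0.56 to 0.06), Oas1a (-0.46 to 0.51), Ifih1 (-0.41 to 0.19), Ddx60 (-0.38 to 0.17), Rsad2 (-0.62 to 0.02), Cmpk2 (-1.14 to 0.12), Parp14 (-0.24 to 0.07), Trim30d (-0.71 to 0.35), Rtp4 (-0.16 to 0.09), Oas2 (-0.93 to 0.20), Oas3 (-1.20 to 0.45), Oasl2 (-0.71 to 0.05), Samhd1 (-0.18 to 0.03), Ly6e (-1.0 to 0.36), Ifi35 (-0.36 to 0.27) and Xaf1 (-0.26 to 0.03). With the block and without resting WT replicate 2, the difference turned to 0.12 for Oas2 and 0.09 for Zbp1 at rest, to 0.03 for Zbp1 in the mean of both states, and in the interaction to -0.48 for Oas2, -0.27 for Oas3, -0.13 for Zbp1 and -0.40 for Isg20. With quantile normalization the activated difference turned to -0.03 for Usp18, -0.05 for Oas1a and -0.02 for Eif2ak2.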

Other observations

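In a list of IFN-gamma-associated GTPases and regulators, 8 of 11 genes tested rose in WT and 9 of 11 in DKO by limma, with median responses of 2.10 and 2.14, where 3.97% and 5.82% of all genes were called higher. Cxcl9, a chemokine that draws CXCR3-bearing T cells, read 6.98 and 8.02 in resting WT, 6.92 and 6.50 in resting DKO, 12.44 and 12.40 in activated WT, 12.22 and 12.21 in activated DKO cells and 9.70 in cDC1. It rose by 4.93 ± 0.32 in WT (limma adjusted p = 0.00282) and 5.50 ± 0.32 in DKO (adjusted p = 0.00131). Iigp1, an immunity-related GTPase counted among these, read higher after activation in both, from resting values below the brightness limit of 5.94. Since Iigp1 entered the tests through the activated groups only, a rise was built into its selection and its size is not exact. Measured from that limit, its activated means lay 3.33 higher in WT and 3.98 higher in DKO. Gbp5, a guanylate-binding protein, read 8.96 and 10.74 in resting WT against 8.52 and 8.49 in resting DKO, with the high value on WT replicate 2.

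Of 17 LPS-type cytokine and chemokine genes tested, 7 rose in each genotype, against the same shares of all genes. Il6 read 5.04 to 5.78 on the resting cDC2 arrays and 9.44 to 9.65 on the activated ones, and it rose in both (limma adjusted p = 5.2e-04 and 2.4e-04). Its resting values lay below the brightness limit, from which the activated means lay 3.58 higher in WT and 3.64 higher in DKO. Cxcl10, a chemokine gene induced by both interferon types, read 9.57 and 10.47 in resting WT, 8.05 and 6.17 in resting DKO, 12.73 and 12.55 in activated WT and 12.40 and 12.19 in activated DKO cells. Its difference at rest was -2.91 ± 0.60 (limma adjusted p = 0.414, or 0.0851 with the block) and its response 2.62 ± 0.60 in WT and 5.18 ± 0.60 in DKO (limma adjusted p = 0.0448 and 0.0059). As for Rsad2, Cmpk2 and Ifit2, DKO replicate 2 was the lowest of its 4 resting cDC2 values. No gene of either list was called between genotypes at rest or after activation by limma without the block (at most 6 of a list had an unadjusted p below 0.05). With the block 1 LPS-type gene, Ccl3, was called lower at rest and after activation (limma adjusted p = 0.0117 and 0.0386).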
